A study of Homo sapiens with 30 samples.

Results

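RNA of human C4-2-tet-shRB prostate cancer cells was compared after 3 days of doxycycline, which induces a short hairpin RNA against RB1, and without doxycycline, in both cases with the androgen dihydrotestosterone (DHT). The comparison was chosen by its labels and took 4 of the 30 samples of the series. They are the lanes of 2 libraries, since both samples of a group carried the same library name and index and differed only in the lane. The control library came from cells with 10 nM DHT for 24 hours and no doxycycline. The knockdown library came from cells with 0.05 µg/ml doxycycline for 3 days and then 10 nM DHT for 24 hours. All of these cells grew in RPMI medium with 8% charcoal-stripped and 2% regular serum, so hormones were reduced but not absent, and all carry the hairpin construct. The labels name no doxycycline-treated cells with a control hairpin, so loss of RB1 and effects of doxycycline or of hairpin induction cannot be told apart. The sources used here do not say whether the hairpin line is 1 clone. Further samples of the same count table served for comparison, with the same doxycycline steps in untreated (vehicle) cells and with 30 days of doxycycline, as did another C4-2-tet-shRB table in which the cells had DMSO and 5% charcoal-stripped serum. The test in that other table also took in its libraries with 10 µM of an inhibitor of the histone demethylase LSD1, labelled GSK. Cells had this inhibitor alone or with doxycycline.

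RB1 encodes the retinoblastoma protein, which binds E2F transcription factors and holds back the genes they drive for entry into S phase. With its relatives p107 (RBL1) and p130 (RBL2) it also takes part in the repression of genes for mitosis, many of which carry a short promoter element called CHR. DHT binds the androgen receptor, which in prostate cells turns on secretory genes such as KLK3, the gene of prostate-specific antigen. In many prostate cancer cells a high androgen level also lowers genes of the cell cycle.

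The 6 libraries of the table held 14898454 to 16856486 counted reads, 14928765 in the DHT control and 14898454 after doxycycline. The lanes differed by counting error only, with a chi-square ratio over genes of 0.999 in the DHT control and 1.00 after doxycycline, and were summed. With 1 library per group there is no test and no replicate error for this pair. Each ratio is given on a log2 scale with an exact binomial (Clopper-Pearson) 95% interval of the counts, which covers counting error only, and levels are CPM, counts scaled to library size, after TMM scaling. All 12 luminal prostate markers were measured and none was at 0. Of 15 basal, stromal, blood and endothelial markers in the table, 7 were at 0 in both libraries, and their summed level was 16.9 CPM in the control and 18.7 CPM after doxycycline. The 13 protein genes of the mitochondrial genome took 0.115% and 0.122% of the counts. In bulk RNA, fewer cells of a kind, such as cycling cells, and less RNA per cell cannot be told apart.

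RB1 was at 51.1 CPM in the DHT control and at 10.0 CPM after doxycycline, from 702 and 140 counts. Its log2 ratio was -2.34 with an interval of -2.63 to -2.09. In vehicle the same step took RB1 from 47.6 to 7.90 CPM (-2.57), and after 30 days with DHT it stood at 6.23 CPM. In the other C4-2 table, with 2 libraries per group, RB1 changed by -2.18 ± 0.18 (SE; adjusted p = 3.43e-06 with edgeR's quasi-likelihood test).

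Of 11931 genes that reached 100 counts over both libraries, 194 (1.63%) were at least 1.5-fold higher after doxycycline with DHT and 76 (0.637%) at least 1.5-fold lower. The same step without DHT gave 66 higher genes (0.531%) and 18 lower genes (0.145%) among 12425. All genes had a median log2 ratio of -0.02 with DHT, with 5% of genes under -0.32 and 5% over 0.40. The intervals of all 194 higher and all 76 lower genes left out 0. The 1.5-fold limit and the minimum of 100 counts made this nearly certain, so it adds no support. At a 2-fold limit 6 genes (0.0503%) were higher and 3 (0.0251%) lower with DHT, and 7 (0.0563%) and 1 (0.00805%) without. Genes at the limit were TNFSF10, just inside at 0.585, and NUAK2, just outside at 0.585 before rounding. The higher and lower genes were chosen by their ratio with DHT, and that choice alone favours smaller changes without it. The 194 higher genes had a median log2 ratio of 0.67 with DHT and of 0.12 without it. Without DHT 149 of the 194 were above 0 and 44 of the 76 lower genes below 0, where all genes had a median of 0.04. The 76 lower genes stood at -0.67 with DHT and at -0.07 without it, and 3 higher and 3 lower genes were past the limit in both pairs. These 3 higher genes make up 1.55% of the higher genes with DHT and 4.55% of those without.

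The largest ratio belonged to MIR30A, which was higher after doxycycline with and without DHT. MIR30A, a microRNA gene, had 30 counts in the DHT control and 1624 after doxycycline, a log2 ratio of 5.65 (interval 5.21 to 6.30), against 5.73 without DHT and 5.43 ± 0.12 (SE; edgeR adjusted p = 8.19e-15) in the other table. Its hairpin, from RefSeq (GRCh38.p14, chr6:71403551-71403621, minus strand), is shown because this gene had the largest ratio, with the mature arms in capitals.
MIR30A: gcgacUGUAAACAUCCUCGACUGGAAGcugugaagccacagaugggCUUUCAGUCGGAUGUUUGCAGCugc
The labels do not describe the backbone of the hairpin construct, and whether the reads at MIR30A came from the genome's own locus was not tested.

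**Figure D1:**
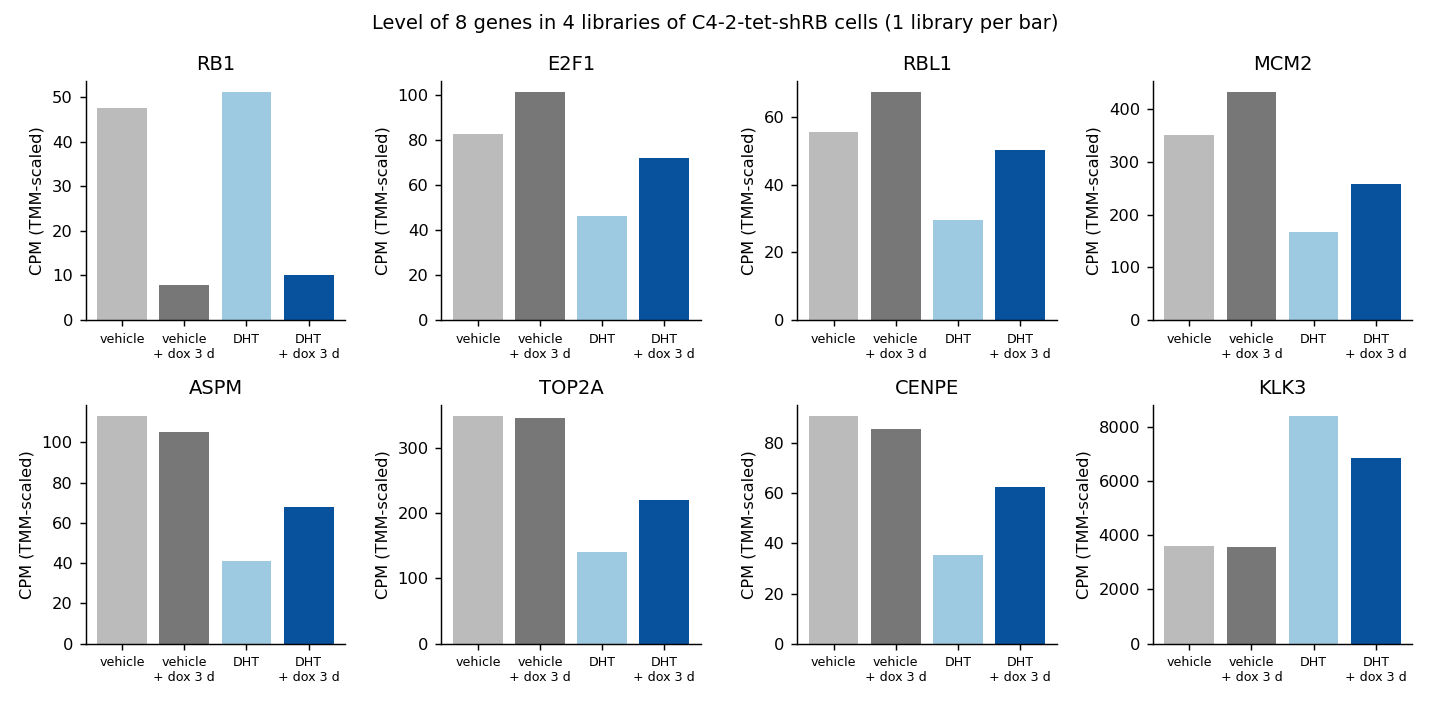
Levels of 8 genes in 4 libraries, in TMM-scaled CPM on a linear axis from 0, with 1 bar per library and no error bars since each group is 1 library. RB1 is lower with doxycycline with and without DHT, while TOP2A is at 140 and 220 CPM with DHT and at 348 and 345 CPM without.

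Of the 194 higher genes 63 (32.5%) belonged to 10 lists of cell cycle genes, and the others lay outside these lists. Of the 288 genes in these lists, 269 were measured, and 63 of these (23.4%, against 1.63% of all genes) were at least 1.5-fold higher while 2 were lower. Their median log2 ratio was 0.45 with DHT and 0.12 without, and 246 of the 269 were above 0 with DHT. The 2 lower ones were RB1 itself and CDKN1C, a CDK inhibitor.

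Only fits that take in other libraries carry a test. The first, added after the values were seen, averaged 3 and 30 days of doxycycline within DHT (2 libraries against the 1 control) with edgeR's quasi-likelihood test and Benjamini-Hochberg adjustment. It called 345 of 17300 genes higher (1.99%) and 144 lower (0.832%), and 148 of the 269 measured cell cycle genes were called higher and 3 lower. Its spread comes from differences between 3 and 30 days, the control arm remains 1 library, and with low-count genes kept in the fit 6 genes in all were called higher, 3 of them in these lists, and the cause was not tested. DESeq2 called 89 of the cell cycle genes higher, and edgeR 140 to 181 with any 1 doxycycline library left out. The other test was the doxycycline step in the other C4-2 table, without DHT and in libraries not used here, where 783 of 18423 genes were higher (4.25%) and 661 lower (3.59%). There 59 of 261 measured cell cycle genes were called higher and 4 lower. That count was 16 without the first DMSO library, 25 without the second, 19 and 20 without either doxycycline library, and was 114 and 108 without either library given the inhibitor alone. Of the 194 genes higher with DHT, 46 (23.7%) were called higher in that table and 0 lower. The spread of that test takes in all 4 groups, and the libraries given the inhibitor alone differed most. Their chi-square ratio over genes was 7.88, against 3.56 with DMSO, 1.61 with doxycycline and DMSO, and 2.62 with doxycycline and inhibitor.

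**Figure D2:**
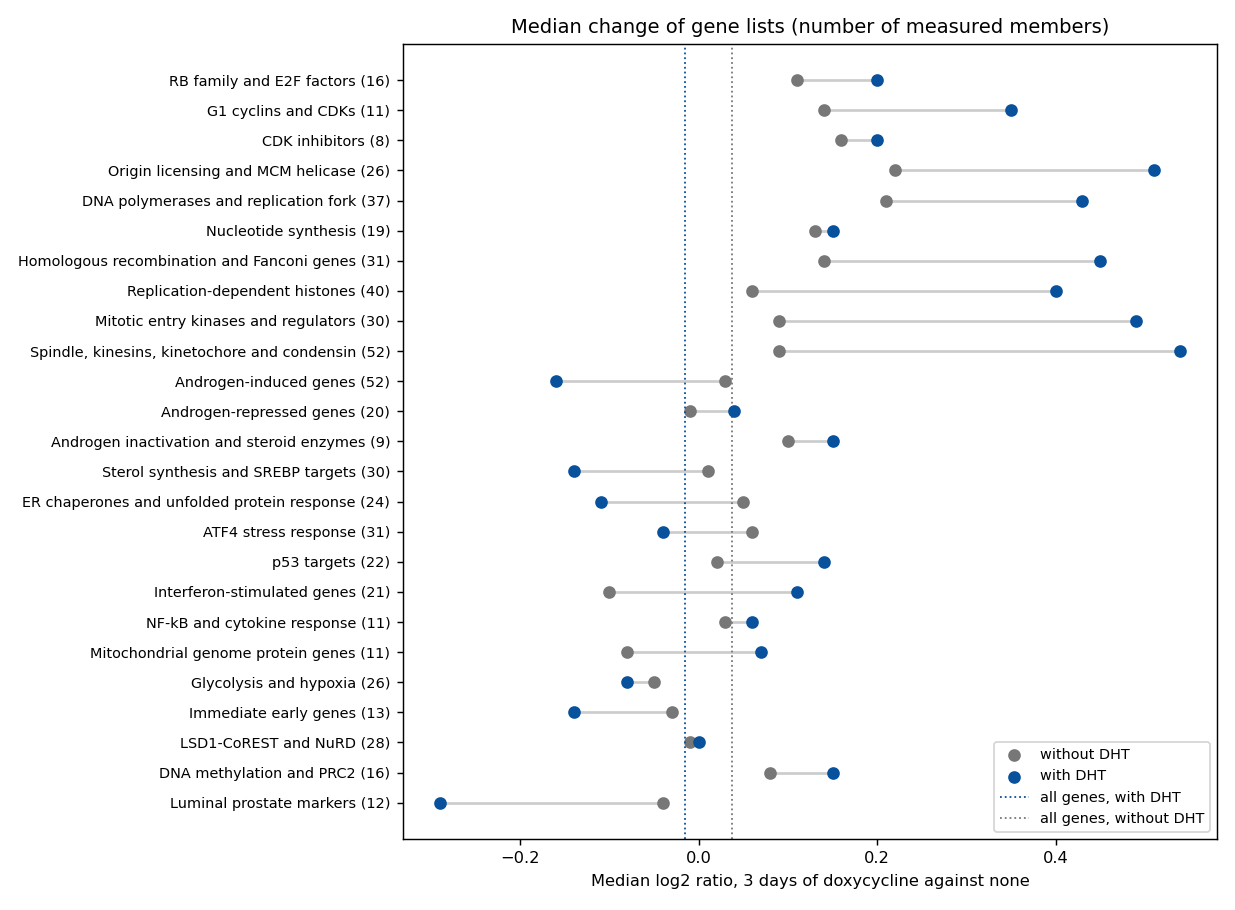
Median log2 ratio of doxycycline for 3 days against none in 25 gene lists with at least 5 measured members (number in brackets), with DHT in blue and without in grey; dotted lines mark the medians of all genes. The spindle list stands at 0.54 with DHT and 0.09 without, and the luminal markers at -0.29 and -0.04.

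In the RB and E2F family the other pocket protein genes differed in opposite directions. RBL1 was at 29.7 CPM in the DHT control and 50.2 CPM after doxycycline, a log2 ratio of 0.75 (interval 0.58 to 0.94), against 55.7 and 67.3 CPM without DHT. RBL2 was at 170 and 147 CPM with DHT (-0.21, interval -0.30 to -0.12). In the other table RBL2 changed by -0.54 ± 0.07 (SE; edgeR adjusted p = 0.000209). RBL1 is itself a known E2F target, and its promoter is printed because it holds a pair of E2F matches next to each other. The letters searched in windows of 300 bases, from 250 before to 50 after the start in RefSeq, were TTTCCCGC, TTTGGCGC, TTTGCCGC and TTTCGCGC on either strand; capitals mark matches in the 250 bases before the start.
RBL1 promoter, GRCh38.p14 chr20:37095998-37096247, minus strand: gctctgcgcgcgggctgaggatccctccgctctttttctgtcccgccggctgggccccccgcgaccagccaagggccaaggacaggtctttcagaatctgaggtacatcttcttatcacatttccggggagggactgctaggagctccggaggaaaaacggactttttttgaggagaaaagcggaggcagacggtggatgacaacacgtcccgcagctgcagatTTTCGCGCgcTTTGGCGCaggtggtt
Among E2F genes, E2F1, an activator of S-phase genes, was at 46.3 CPM in the control and 71.7 CPM after doxycycline (0.63, interval 0.49 to 0.78). Without DHT it went from 82.5 to 101 CPM, a log2 ratio of 0.30, so its level with DHT and doxycycline stayed under that of untreated cells. E2F7, a repressor that E2F1 switches on, was at 10.9 and 18.2 CPM with DHT (0.74) and changed by 0.86 ± 0.12 (SE; edgeR adjusted p = 0.000507) in the other table. E2F4, the partner of the pocket proteins in resting cells, stood at -0.10 with DHT and 0.26 without.

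Genes that load and fire replication origins were higher as a group. Of 26 origin licensing and MCM helicase genes, all measured, 7 were at least 1.5-fold higher (26.9%), 0 lower, and the median was 0.51 with DHT, 0.22 without. The helicase subunit MCM2 was at 167 CPM in the DHT control and 259 CPM after doxycycline (0.63, interval 0.56 to 0.71), and at 352 and 432 CPM in the pair without DHT. CDT1, which loads the helicase, was at 27.0 and 42.2 CPM (0.64), and GINS2, a subunit of the active helicase, at 24.6 and 40.3 CPM (0.71). The subunits of the helicase ran close together, with MCM2 to MCM7 between 0.49 (MCM4) and 0.63 (MCM2). Subunits of the origin recognition complex did not share this: ORC1 stood at 0.58, but ORC2, ORC3, ORC4 and ORC5 at -0.11, -0.05, -0.09 and -0.17. MCM2 was also higher in the other table, by 0.42 ± 0.06 (SE; edgeR adjusted p = 0.000627), and that call held when any library was left out. Of all genes 4.25% were called higher in that table. There, 11 of the 26 genes were called higher, and 5 to 15 with any 1 library left out, the fewest without the first doxycycline library. Of the members past the limit, GINS2 had the largest ratio, and its promoter is printed to show the single E2F match, read on the opposite strand.
GINS2 promoter, GRCh38.p14 chr16:85688955-85689204, minus strand: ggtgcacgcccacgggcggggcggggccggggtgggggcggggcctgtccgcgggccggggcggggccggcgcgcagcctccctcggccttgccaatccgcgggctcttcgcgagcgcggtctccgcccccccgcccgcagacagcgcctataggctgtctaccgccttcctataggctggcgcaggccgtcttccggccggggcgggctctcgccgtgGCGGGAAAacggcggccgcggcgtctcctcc

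Of 37 polymerase and replication fork genes, 9 were past the limit (24.3%), all upward, with a median of 0.43 with DHT and 0.21 without. CLSPN, which relays replication stress to the checkpoint kinase CHK1, was at 8.96 CPM in the DHT control and 17.1 CPM after doxycycline (0.92, interval 0.61 to 1.26). FAM111B was at 99.5 and 166 CPM (0.74) and at 104 CPM in vehicle. PCNA, the sliding clamp, was at 140 and 196 CPM (0.49). In nucleotide synthesis 1 of 19 genes passed the limit, TYMS (thymidylate synthase), at 8.67 and 14.4 CPM (0.72, interval 0.39 to 1.07), and in the other table TYMS changed by 0.57 ± 0.08 (SE; edgeR adjusted p = 0.000627). The list's median was 0.15 with DHT and 0.13 without, and 1.63% of all genes passed the limit upward with DHT. Purine synthesis genes PPAT, IMPDH1 and IMPDH2 stood at -0.03, -0.09 and -0.08. C18orf56, a gene annotated at the TYMS locus, was at 4.44 and 10.0 CPM (1.15, 61 and 140 counts). Its strand and overlap with TYMS reads were not settled here because no source used here gives the strand setting of the counting.

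Homologous recombination and Fanconi genes, which repair broken or crosslinked DNA, lay above 0 in all 31 cases, with 7 past the limit (22.6%) and a median of 0.45 with DHT and 0.14 without. RAD54L, a motor protein of strand exchange, was at 8.16 CPM in the control and 14.9 CPM after doxycycline (0.86, interval 0.53 to 1.21). FANCA, of the Fanconi core complex, was at 13.6 and 23.1 CPM (0.76). Both stood close to 0 without DHT, at 0.19 and 0.09. Of all genes 4.25% were called higher in the other table. Of the 31, 8 were called higher in the other table, but 0 without the first DMSO library and at most 2 without the second DMSO library or either doxycycline library.

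Replication-dependent histone genes, read in S phase, were measured for 40 of 57 genes, of which 5 were past the limit (12.5%), with a median of 0.40 with DHT and 0.06 without. HIST1H4A was at 32.9 and 55.2 CPM (0.75, interval 0.58 to 0.92) and HIST1H2AH at 63.2 and 100 CPM (0.67). Without DHT HIST1H2AH was at 179 and 177 CPM. HIST2H2BE went the other way, from 332 to 255 CPM (-0.38). Reads of near-identical histone genes can be split among copies, so single members are uncertain. This table was made with a total RNA kit and the other with an mRNA kit, where 32 of these 40 genes were tested.

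Mitotic genes were higher with DHT and close to level without it. Of 52 genes of the spindle, kinetochore and condensin, 21 were past the limit (40.4%), 0 lower, and the median was 0.54 with DHT and 0.09 without. Of 30 genes of mitotic entry, 9 were past the limit (30.0%), with medians of 0.49 and 0.09. CENPE, a kinetochore motor, was at 35.3 CPM in the DHT control and 62.4 CPM after doxycycline (0.82, interval 0.66 to 0.99), and at 90.7 and 85.7 CPM in vehicle. ASPM, which acts at spindle poles, was at 41.2 and 67.7 CPM with DHT (0.71) and at 113 and 105 CPM without (-0.10). TOP2A, the topoisomerase that untangles sister chromatids, was at 140 and 220 CPM with DHT (0.64) and 348 and 345 CPM without (-0.01). UBE2C, which serves the anaphase-promoting complex, was at 33.8 and 57.2 CPM (0.76), and FOXM1 and MYBL2, transcription factors of mitotic genes, both stood at 0.62. WEE1, a kinase that delays mitosis, was at 37.3 and 61.4 CPM (0.72). CENPN, BUB3 and FZR1 were exceptions, at -0.13, 0.10 and -0.15. In the other table, without DHT, 6 of the 52 spindle genes were called higher and 1 lower. Of the 30 mitotic entry genes 4 were higher and 0 lower, against 4.25% and 3.59% of all genes. The list medians there were 0.19 and 0.12. With low-count genes kept, 10 spindle and 6 mitotic entry genes were called higher, and with the replicate number in the model 4 and 3. The numbers called higher fell without any 1 DMSO or doxycycline library lacking the inhibitor, and rose without either library given the inhibitor alone. In the test with all libraries CENPE, ASPM and UBE2C were not called, at 0.35 ± 0.15, 0.44 ± 0.17 and 0.25 ± 0.08 (SE; edgeR adjusted p = 0.178, 0.135 and 0.0769). TOP2A and WEE1 were called higher, at 0.35 ± 0.08 and 0.64 ± 0.09 (SE; edgeR adjusted p = 0.0161 and 0.000439). The changes of CENPE, ASPM and TOP2A were thus of similar size. With low-count genes kept, CENPE and ASPM were also called (edgeR adjusted p = 0.0378 and 0.00493). TOP2A lost its call without any 1 DMSO or doxycycline library lacking the inhibitor (0.28 to 0.42). With DHT and doxycycline CENPE, ASPM, TOP2A and UBE2C stayed below both vehicle libraries, while WEE1 at 61.4 CPM stood beside its vehicle level of 60.0 CPM.

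The promoters of ASPM and TOP2A are shown as mitotic examples. Capitals mark CHR matches, TTTGAA or TTCGAA on either strand, in the 250 bases before the start.
ASPM promoter, GRCh38.p14 chr1:197146670-197146919, minus strand: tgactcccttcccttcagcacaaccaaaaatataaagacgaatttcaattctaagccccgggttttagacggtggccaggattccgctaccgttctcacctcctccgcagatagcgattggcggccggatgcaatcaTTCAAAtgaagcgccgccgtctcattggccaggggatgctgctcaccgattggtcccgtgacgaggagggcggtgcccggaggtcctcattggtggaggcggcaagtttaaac
TOP2A promoter, GRCh38.p14 chr17:40417897-40418146, minus strand: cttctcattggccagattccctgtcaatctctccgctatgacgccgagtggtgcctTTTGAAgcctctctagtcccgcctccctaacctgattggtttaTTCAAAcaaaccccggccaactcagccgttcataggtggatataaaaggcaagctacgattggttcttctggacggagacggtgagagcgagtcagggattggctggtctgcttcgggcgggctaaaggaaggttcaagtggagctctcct
Of all 27305 RefSeq promoter windows, 16.6% held a CHR match and 3.33% an E2F match. A promoter was found for 47 of the 52 spindle genes, and 72.3% of these held a CHR match and 6.38% an E2F match. Licensing genes (23 of 26 found) showed the reverse, with 8.70% and 47.8%, and fork genes (31 of 37 found) had 3.23% and 35.5%. Androgen-induced genes (44 of 52 found) had 15.9% and 4.55%, close to all promoters. These are matches of letters and say nothing of binding. For the 194 higher and 76 lower genes and the mitotic entry list, fewer than 80% had a promoter in the table, so no share is given.

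**Figure D3:**
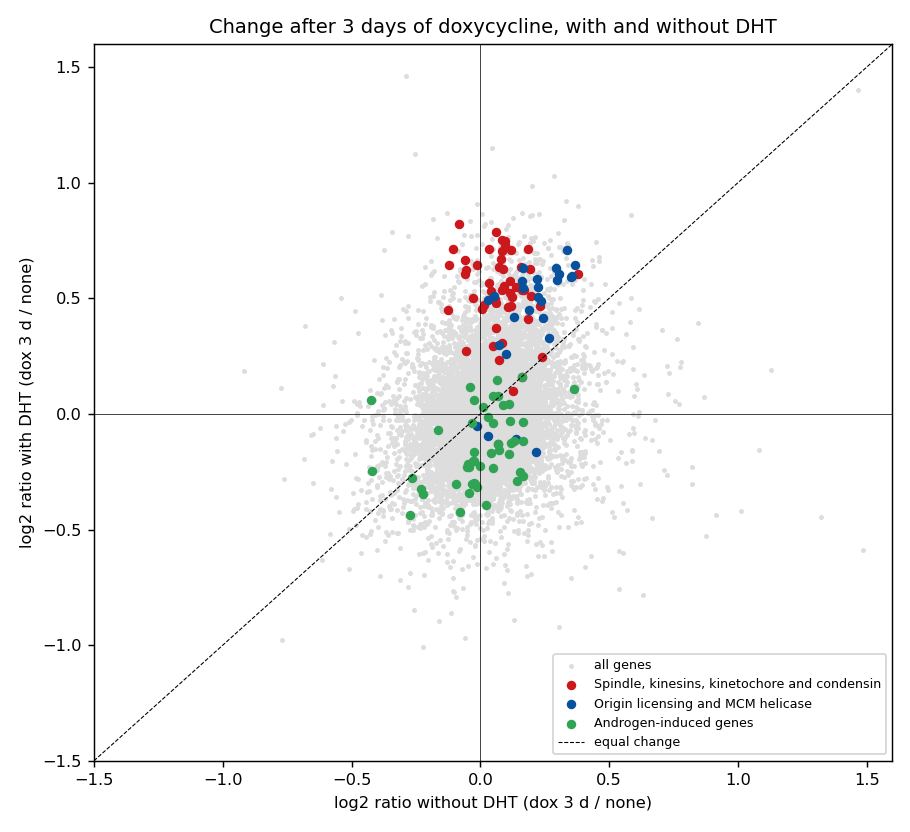
Log2 ratio of 3 days of doxycycline against none with DHT (vertical) and without DHT (horizontal), 1 point per gene with at least 100 counts in each pair (11743 genes drawn, 2 outside the axes), with 3 lists in colour and a dashed line of equal change. Most spindle genes (red) lie high but near 0 on the horizontal axis, most licensing genes (blue) lie high and to the right with 4 below 0, and most androgen-induced genes (green) lie just below 0 on the vertical axis.

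Whether the doxycycline effect differed with and without DHT was tested as an interaction over the 6 libraries, with 3 and 30 days taken as 1 level, also added after the values were seen. Each arm without doxycycline was 1 library, and the spread came from differences between 3 and 30 days, with 2 residual degrees of freedom. With edgeR's quasi-likelihood test 8 of 17300 genes (0.0462%) had a larger effect with DHT at an adjusted p under 0.05, and 1 (0.00578%) a smaller one. Of the 8, 6 were spindle list genes, namely ASPM (difference 0.90, adjusted p = 0.0124), CENPF (0.79), MKI67 (0.78), CASC5 (0.71), TOP2A (0.70) and NCAPG (0.69). The others were PRR11 (0.82), which is needed for mitosis, and HIST1H2AH (0.76), and the adjusted p-values of all 9 ran from 0.0124 to 0.0477. At an unadjusted p under 0.05 there were 686 genes with a larger and 447 with a smaller effect. Leaving out 1 doxycycline library gave 44 (3 days with DHT) to 117 (3 days in vehicle) larger and 7 (30 days with DHT) to 23 (30 days in vehicle) smaller effects, 72 larger without the 30-day DHT library and 99 without the 30-day vehicle library. All 9 calls ended when low-count genes were kept in the fit, MKI67 and NCAPG also with DESeq2 size factors (adjusted p = 0.0535 and 0.0596). DESeq2 itself ended 4 of the 9, MKI67 (adjusted p = 0.0965), NCAPG (0.191), PRR11 (0.191) and AC010970.2 (0.759). The fitted differences of list members had a median of 0.47 for spindle genes, 0.49 for mitotic entry, 0.29 for licensing and 0.22 for fork genes. A difference between these list medians was not tested.

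Levels were also set against the vehicle library, where the lists of replication, repair, histone and mitotic genes stayed below it with DHT and doxycycline. DHT alone put the median spindle gene at 49.8% of its vehicle level, and DHT with doxycycline put it at 74.2%, while doxycycline alone left it at 106%. Licensing genes stood at 57.5% with DHT and 81.9% with DHT and doxycycline. Histone genes stood at 46.8% and 64.4%. Other cell cycle lists were closer to vehicle with DHT and doxycycline, with RB and E2F genes at 85.5%, G1 cyclins and CDKs at 97.8% and CDK inhibitors at 101%. Some single genes exceeded it, such as FAM111B at 166 CPM against 104 CPM and CLSPN at 17.1 CPM against 14.4 CPM. Genes of the LSD1-CoREST and NuRD complexes, which are no cell cycle list, stood at 97.9% and 97.2%. The DHT control library enters both the level with DHT alone and the ratio after doxycycline, so these values are not independent of each other. After 30 days with DHT, a comparison that shares this control, the spindle median was 68.7% and the licensing median 76.3%.

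**Figure D4:**
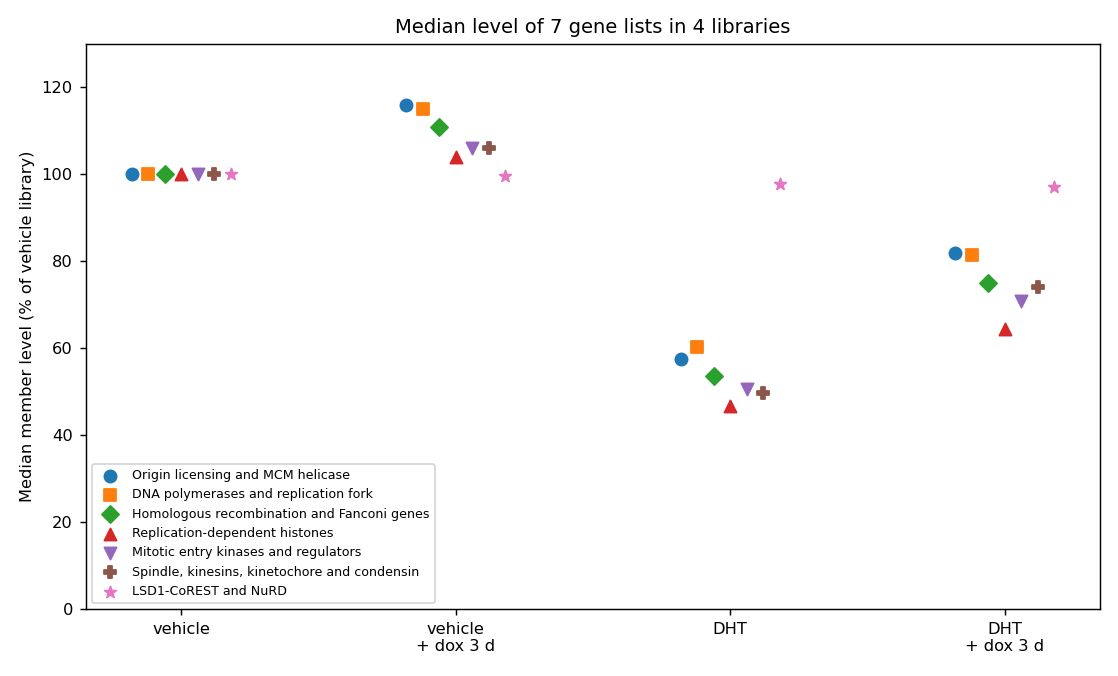
Median level of the members of 7 gene lists in each of 4 libraries, as percent of the vehicle library (which is 100 by construction), 1 point per list and library, offset sideways for legibility. The 6 lists of replication, repair, histone and mitotic genes drop to between 46.8% and 60.3% with DHT and stand between 64.4% and 81.9% with DHT and doxycycline, while the LSD1-CoREST and NuRD list stays near 97%.

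G1 cyclins and CDKs gave no gene past the limit, with a median of 0.35 over 11 measured. CCNA2, cyclin A2, was at 45.2 and 66.5 CPM (0.56) and CCND1, cyclin D1, at 401 and 352 CPM (-0.19). Among 8 CDK inhibitor genes, CDKN3, a phosphatase of CDKs read in late cell cycle, was at 28.4 and 46.1 CPM (0.70). CDKN1C, which encodes p57, was at 23.0 and 11.4 CPM (-1.01, interval -1.30 to -0.74), against 16.7 and 14.3 CPM without DHT. In the other table CDKN1C stood at -0.09 ± 0.13 (SE; edgeR adjusted p = 0.761). CDKN1A, which encodes p21, was at 127 and 151 CPM (0.24).

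Most androgen-induced genes were slightly lower in this pair. Of 52 measured, 0 were past the limit in either direction, and 38 were below 0 and 14 above. The median was -0.16 with DHT and 0.03 without, against -0.02 and 0.04 for all genes. Intervals of 32 members lay wholly below 0. These cover counting error only and are narrow at high counts, and the share over all genes was not taken. KLK3 was at 8390 CPM in the DHT control and 6830 CPM after doxycycline (-0.30, interval -0.31 to -0.29), from 115181 and 95471 counts. Without DHT KLK3 stayed at 3610 and 3550 CPM. TMPRSS2, a membrane protease, was at 2270 and 1790 CPM with DHT (-0.35), and at 467 and 400 CPM without (-0.22). SLC45A3, which encodes prostein, was at 1860 and 1380 CPM with DHT (-0.43) and at 209 and 198 CPM without. HPGD, an enzyme that breaks down prostaglandins, went the other way, at 12.4 and 15.8 CPM (0.35). With DHT and doxycycline the median androgen-induced gene was still at 321% of its vehicle level, against 343% with DHT alone and 363% after 30 days of doxycycline with DHT. Of these genes 50 were tested in the other table, where 6 were called higher and 9 lower, against 4.25% and 3.59% of all genes. Without any 1 of its DMSO or doxycycline libraries lacking the inhibitor there were 2 or 3 higher and 4 to 6 lower, and without either library given the inhibitor alone 11 or 10 higher and 10 lower. In the fit averaged over 3 and 30 days with DHT, 0 of the list's genes were called higher and 6 lower, 0 when low-count genes were kept, and KLK3's call (-0.34, adjusted p = 0.0105) ended without the 30-day DHT library (-0.29, adjusted p = 0.062). In the other table KLK3 changed by -0.29 ± 0.05 (SE; edgeR adjusted p = 0.00219), and by -0.27 (adjusted p = 0.0736) without the second doxycycline library, while SLC45A3 was higher there, by 0.43 ± 0.08 (SE; adjusted p = 0.00249), and by 0.41 and 0.39 (adjusted p = 0.0519 and 0.0667) without the second DMSO or the first doxycycline library. The 12 luminal markers, which overlap this list, summed to 18200 CPM in the DHT control and 14800 CPM after doxycycline, with 11 of 12 below 0.

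Sterol synthesis genes, whose median level with DHT alone was 182% of vehicle, had a median of -0.14 after doxycycline with DHT and 0.01 without, and 25 of 30 were below 0 while 0 passed the limit. FDFT1, squalene synthase, was at 1540 and 1150 CPM (-0.41, interval -0.44 to -0.38) and at 445 and 454 CPM without DHT. ER chaperone genes stood at a median of -0.11, with 20 of 24 below 0, against a median of -0.02 over all genes. In the other table more genes of both lists were called higher than lower, with 9 sterol genes called higher and 1 lower of 30 and 5 chaperone genes higher and 2 lower of 24. Without any 1 of the DMSO or doxycycline libraries lacking the inhibitor there were 3 to 5 sterol and 1 or 2 chaperone genes higher, and without either library given the inhibitor alone 10 of each. The ATF4 stress genes' median was -0.04 with DHT, whereas 21 of 31 were called higher in the other table and 0 lower, and 14 to 24 with any 1 library left out. CHAC1, an ATF4 target, stood at -0.13 with DHT and 1.17 in the other table. LMNB1, which encodes lamin B1, also differed in sign between tables, at 0.47 with DHT and -0.76 in the other table; medium, kit and hormone all differ between the tables and cannot be told apart.

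Single genes outside these lists were among the largest differences. BIRC3, an inhibitor of apoptosis and NF-kB target, was at 20.8 CPM in the DHT control and 42.5 CPM after doxycycline (1.03, interval 0.83 to 1.24), against 13.5 and 16.5 CPM without DHT. The other NF-kB genes did not share its size, with a list median of 0.06 over 11 measured genes. DIAPH3, a formin that acts in cell division, was at 13.8 and 27.4 CPM (0.99), and CSPG5, a proteoglycan, at 14.9 and 27.4 CPM (0.87). PHF19, an accessory subunit of the Polycomb complex PRC2, was at 7.50 and 12.7 CPM (0.74), and OAS3, an interferon-stimulated gene, at 20.7 and 35.2 CPM (0.76). In the other table BIRC3 and DIAPH3 were not called, at 0.15 ± 0.14 and 0.05 ± 0.11 (SE, edgeR adjusted p = 0.581 and 0.825). CSPG5, PHF19 and OAS3 were called higher there, at 0.59, 0.52 and 0.42 (edgeR adjusted p = 0.00233, 0.0111 and 0.00657). OAS3 lost its call without any 1 DMSO or doxycycline library lacking the inhibitor (0.38 to 0.45). PHF19 lost it without the second DMSO library or either such doxycycline library (0.40 to 0.56), and CSPG5 without the first DMSO library (0.56). In the interferon list 1 of 21 measured genes passed the limit, against 1.63% of all genes upward, with a median of 0.11.

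The lowest ratios after RB1 included CDKN1C, STAMBP and MT1X. STAMBP, a deubiquitinating enzyme of endosomes, was at 62.0 and 31.4 CPM with DHT (-0.98, interval -1.15 to -0.81) and at 42.6 and 24.9 CPM without (-0.77), but stood at 0.00 ± 0.08 (SE; edgeR adjusted p = 0.989) in the other table. MT1X, a metallothionein, was at 12.1 and 6.43 CPM (-0.90), and at 30 days with DHT at 10.8 CPM. SLC11A2, an iron transporter, was at 149 and 93.4 CPM (-0.67) with DHT and at 118 and 82.7 CPM without. LDHD, a lactate dehydrogenase that acts on the D form, was at 119 and 75.1 CPM (-0.66) with DHT and at 46.5 and 42.9 CPM without. Other lower genes, such as TATDN1P1, TUFMP1 and COX7A2P2, are pseudogenes whose reads can be shared with their parent genes, and their values (-0.70, -0.69 and -0.64) are uncertain. KDM1A, the histone demethylase LSD1 a subject of the series, was level at 108 and 106 CPM (-0.03, interval -0.13 to 0.08).

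Neuroendocrine markers, which can appear when prostate cancer cells lose RB1, were mostly too low to measure. Of 18 markers 4 were measured and 6 were at 0 in both libraries, among them CHGB, INSM1 and SCG3. The summed level of the 18 markers was 153 CPM in the DHT control and 167 CPM after doxycycline, and ONECUT2 had the largest ratio, 0.51, at 14.0 and 20.0 CPM. After 30 days of doxycycline with DHT the sum was 263 CPM. The 4 measured markers had a median log2 ratio of 0.08 at 3 days and 0.57 at 30 days, against the same control library. A marker at 0 limits only what these depths could show.

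Values at 30 days of doxycycline with DHT are set beside those at 3 days, and both use the same DHT control library. At 30 days 284 of 11976 genes (2.37%) were at least 1.5-fold higher and 99 (0.827%) lower, and at a 2-fold limit 31 (0.259%) and 9 (0.0752%). MCM2 had a log2 ratio of 0.63 at 3 days and 0.63 at 30 days, and RBL1 had 0.75 and 0.79. Among mitotic genes CENPE had 0.82 and 0.53, and TOP2A 0.64 and 0.61. KLK3 had -0.30 and -0.39, and CDKN1C -1.01 and -0.76. In the additive edgeR model of all 6 libraries, which takes the 3-day effect as equal with and without DHT, 42 of 16504 genes were called higher (0.254%) and 31 lower (0.188%).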

How the data were processed

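RNA-seq of 2 libraries was compared, with 4 others of the same table and 8 of another C4-2 table for reference. The values deposited by the authors are counts, whole reads per gene without normalization. Per the submitters' processing notes, FastQC 0.11.9, STAR 2.7.2 and featureCounts 1.6.4 were used with hg19 (GRCh37); the annotation version and strand setting are not given in the sources used here. Per the labels, libraries were made with a stranded total RNA kit, or an mRNA kit for the other table. All columns used were mapped to a sample, and 0 were left unmapped.

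Lanes were compared by the chi-square of their counts per gene, divided by its degrees of freedom (10 counts or more, limit 1.5), and summed to 14898454 to 16856486 reads per library. Ratios are differences of log2 CPM (TMM, prior count 2, edgeR 4.0.16 in R 4.3.3) for genes that reached 100 counts over both libraries. Past the limit means at least 1.5-fold. Intervals are exact binomial at 95%. Tests are edgeR's quasi-likelihood test with filterByExpr and Benjamini-Hochberg adjustment at 0.05: the other C4-2 table (4 groups of 2 libraries), an additive model of the 6 libraries (doxycycline level and DHT, 42 genes higher and 31 lower of 16504), and, added after the values were seen, the effect within DHT and the interaction. In the other table the labels number replicates, but nothing says that they are separate cultures, and p-values then reflect only how these samples vary, which may be technical. The additive model was fitted but is not read further, since it takes the effect as equal with and without DHT.

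The comparison, its members and the 27 gene lists were chosen with earlier results of these data known. Genes named are RB1, RBL1, RBL2, E2F1, KLK3, KDM1A and MIR30A, the 15 largest rises and falls with at least 200 counts, up to 4 rises and 3 falls past the limit per list (otherwise its largest change), and the 5 largest differences in each direction from the pair without DHT. Genes called in the interaction, and list members given as further examples (such as MCM4, ORC2, PCNA, FOXM1, CCND1, CDKN1A, TMPRSS2, CHAC1 and LMNB1), were chosen after their values were seen. Some genes the rule names are not reported here. The pair ratio, the additive model and the fit of the other table were tested on simulated data. The fits within DHT and of the interaction were not. Alternatives were DESeq2 1.42.0, DESeq2 size factors, total counts, other minimum counts, single lanes, left-out libraries and a replicate block. Promoters and the microRNA are from RefSeq (GRCh38.p14); no coordinates of the files' build are given.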

Additional observations from a re-analysis of the deposited data

Results flagged for a closer look

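In all, 9 genes had a doxycycline effect that differed with and without DHT in the edgeR interaction test, in which each arm without doxycycline is 1 library and 3 and 30 days supply the spread, as fitted log2 differences (with minus without DHT): ASPM 0.90, PRR11 0.82, CENPF 0.79, MKI67 0.78, HIST1H2AH 0.76, CASC5 0.71, TOP2A 0.70, NCAPG 0.69 and AC010970.2 -1.18. In the 3-day pairs ratios were also compared for opposite signs with both 95% counting intervals leaving out 0, among the genes named by rule or called. Of the called genes this held for ASPM at 0.71 with DHT and -0.10 without, and CENPF at 0.60 and -0.06. It also held for AC010970.2, which stood at -0.53 with DHT and 0.88 without. It held for 5 further genes, whose interaction was not called: MIR3687 at -0.71 and 0.35, CTD-2328D6.1 at -0.59 and 1.48, AC079949.1 at -0.45 and 1.32, AL161626.1 at -0.42 and 1.01, and S1PR3 at 0.50 and -0.54. All of these but MIR3687, and AC010970.2, were named for the largest differences between the same ratios. Opposite signs among them are thus partly built in. The loci CTD-2328D6.1, AC079949.1, AL161626.1, AC010970.2 and RNA5-8SP6 together took 0.186% of the counts in vehicle, 0.422% with doxycycline alone, 0.580% with DHT and 0.408% with both, and the part of this share in their ratios was not tested.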

How the results depend on the processing

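Over the scalings, minimums, prior count and single lanes tried, 2 of 27 list medians with DHT changed sign, androgen-repressed genes (0.04 to -0.04 from 1 lane) and steroid enzymes (0.15 to -0.03 with a minimum of 500 counts). Counts of genes past a limit moved more. With DHT the 194 higher genes became 290 to 297 from single lanes, 686 and 83 with a minimum of 20 or 500 counts and 6 at 2-fold, and the 76 lower genes 147 to 150, 443, 10 and 3. Without DHT the 66 higher genes became 123 to 137, 493, 6 and 7, and the 18 lower genes 82 to 83, 372, 3 and 1, and 29 with DESeq2 size factors or total counts. In the additive model the 42 higher calls became 14 with DESeq2, 170 with low-count genes kept and 9 to 611 with 1 library left out, and the 31 lower calls 13, 52 and 10 to 391. Within DHT the 345 higher calls became 159, 6 and 301 to 663, and the 144 lower calls 53, 3 and 79 to 411. In the interaction the 8 larger effects became 7 with DESeq2 (which did not call MKI67, NCAPG and PRR11), 6 with DESeq2 size factors, 0 with low-count genes kept and 44 to 117 with 1 library left out, and the 1 smaller effect 0 with DESeq2, 0 with low-count genes kept and 7 to 23. In the other table the 783 higher calls became 149 to 1676 and the 661 lower calls 130 to 1550 with 1 library left out. With a replicate block these were 528 and 380. Deviations of same-numbered libraries correlated at -0.125 to 0.0352, so no shared shift was seen. This cannot settle whether same-numbered libraries were prepared together. The additive value reversed without the vehicle control for AC010970.2 (0.14 to -0.42) and AL161626.1 (0.25 to -0.23) and without the 3-day vehicle library for CTD-2328D6.1 (0.49 to -0.46), with ranges over left-out libraries of -0.42 to 0.75, -0.27 to 0.80 and -0.46 to 1.31; the cause was not tested. The within-DHT and interaction fits could not be made without their control libraries. With 1 library per group, depth limits counting error only, and spread between cultures is unknown.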
